A study of Mus musculus with 38 samples.

Results

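The mitochondrial ribosomal protein genes were followed in livers in which Myc, YAP or both were switched on. They were taken as every gene whose symbol begins with Mrpl or Mrps followed by a number; the prefixes mostly stand for the large and the small subunit, but Mrps18a and Mrps30 belong to the large subunit and Mrps36 is now known as a subunit of the alpha-ketoglutarate dehydrogenase complex rather than of the ribosome. This gave 76 of the 21644 genes in each of the 2 deposited RNA-seq tables, and the rule used no expression value. All 76 reached the minimum level for testing in both tables.

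The mitochondrial ribosome translates the few mRNAs encoded by mitochondrial DNA, which specify core subunits of the respiratory chain and of ATP synthase. All of its proteins are encoded in the nucleus, made in the cytosol and imported, and are assembled in the matrix on RNAs transcribed from mitochondrial DNA. Some are homologues of bacterial ribosomal proteins, while others are found only in mitochondrial ribosomes. Hepatocytes are rich in mitochondria, and Myc is known from other systems as an activator of genes for ribosomes and mitochondria, while YAP is a transcriptional coactivator that binds DNA through TEAD factors.

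The data were 38 liver libraries from 2 mouse systems. In the R26 system the reverse transactivator is driven from the Rosa locus (R26-rtTA), and mice were given doxycycline food for 2 days; the groups were R26-rtTA;tet-Myc;tet-YAP (called tet-Myc/YAP, 3 libraries), R26-rtTA;tet-Myc (4), R26-rtTA;tet-YAP (6) and R26-rtTA;WT (4), so the WT mice carried the driver alone. In the LAP system the transactivator is driven by the liver-specific LAP promoter; the groups were tumour nodules of LAP-tTA;tet-YAP livers (8), LAP-tTA;tet-Myc;tet-YAP (3), LAP-tTA;tet-YAP (4) and LAP-tTA;tet-Myc (3) livers, these 3 groups after 4 weeks of activation, and LAP-tTA;WT (3). The LAP driver is tTA and not the rtTA of the R26 mice. The doxycycline exposure of the LAP mice is not given here, and its part in the results was not tested. The YAP transgene encodes an activated mutant. Neither time of induction nor doxycycline treatment was given for the WT livers in the labels, nor were age and sex for any animal. Nothing in the labels says whether libraries of a group, or the tumours, came from separate animals, so the p-values measure the spread between libraries. Libraries are numbered here by their column order within a group.

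Expression was given by the authors as RPKM, read counts scaled by transcript length and by the reads of the library. A gene was called changed when limma gave a Benjamini-Hochberg adjusted p below 0.05 over all genes of the system and the log2 difference was at least 0.5 in size, on the log2(RPKM + 0.5) scale.

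Some libraries stood apart from their group or label. The Myc gene, the targeted gene of the tet-Myc lines, measured 3.12, 2.93 and 2.70 RPKM in R26 tet-Myc/YAP livers, 1.98, 2.68, 3.5 and 0.61 in R26 tet-Myc livers, 1.42 to 2.27 in R26 tet-YAP livers, and 0.77, 0.75, 0.52 and 0.61 in R26 WT livers. The library labelled R26 tet-Myc 4 was thus at the WT level, and Myc was called higher than WT in R26 tet-YAP livers as well (0.98, log2; limma adjusted p = 0.011). In the LAP system Myc measured 3.31 to 8.34 RPKM in tumours, 2.81, 1.94 and 1.47 in tet-Myc/YAP livers, 2.40 to 2.86 in tet-YAP livers and 1.87, 1.1 and 0.91 in tet-Myc livers, against 3.20, 1.16 and 0.63 in WT livers. It was called higher than WT in tumours (1.48; limma adjusted p = 0.00019), which carry no Myc transgene, and neither LAP group with that transgene stood above WT or above tet-YAP livers. Yap1 differed from WT by 0.10 (log2) in R26 tet-YAP livers and by −0.04 in R26 tet-Myc/YAP livers; whether the Myc and Yap1 values include the transgenes is not known, so Yap1 does not check the labels. The libraries rested on 23920000 to 56980000 reads, as estimated from the size of single-read steps. There were 6 pairs of libraries within a group that were closer to each other than other pairs, among them LAP tet-YAP 3 and 4 as well as R26 tet-Myc/YAP 1 and 2. A female expression pattern was seen in 17 libraries, among them all 8 tumours and 2 of 3 LAP WT livers.

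Windows around the starts of 6 of these genes, chosen after their values were seen, are shown. Mrpl34, Mrps26, Mrps12, Mrps24 and Mrps7 were among those lowest in R26 tet-Myc/YAP livers or most changed in LAP livers. Mrps6 was the gene that moved the other way. In all, 51 genes were called lower in R26 tet-Myc/YAP than in WT livers, and Mrps34, also among the lowest, is not shown. Whether a motif match goes with a change was not tested. Each window runs from 250 bases before to 50 bases after the start, 5′ to 3′, as given by RefSeq on GRCm38.p6, and capitals mark a match to the ETS motif CCGGAAG or the YY1 motif AAGATGG on either strand.

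Mrpl34, chr8:71464676-71464975, plus strand: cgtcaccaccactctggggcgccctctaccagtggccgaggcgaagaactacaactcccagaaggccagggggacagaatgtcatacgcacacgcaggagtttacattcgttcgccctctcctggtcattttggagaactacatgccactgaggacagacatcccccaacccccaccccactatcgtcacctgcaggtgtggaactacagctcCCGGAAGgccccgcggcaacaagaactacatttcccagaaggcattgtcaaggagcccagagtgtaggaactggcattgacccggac
Mrps26, chr2:130563507-130563806, plus strand: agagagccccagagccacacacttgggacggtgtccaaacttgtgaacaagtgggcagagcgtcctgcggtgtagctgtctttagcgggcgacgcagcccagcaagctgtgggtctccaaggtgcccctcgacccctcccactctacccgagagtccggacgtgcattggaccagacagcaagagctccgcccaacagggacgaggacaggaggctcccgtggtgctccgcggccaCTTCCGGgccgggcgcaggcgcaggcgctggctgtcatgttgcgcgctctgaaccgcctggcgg
Mrps12, chr7:28741772-28742071, minus strand: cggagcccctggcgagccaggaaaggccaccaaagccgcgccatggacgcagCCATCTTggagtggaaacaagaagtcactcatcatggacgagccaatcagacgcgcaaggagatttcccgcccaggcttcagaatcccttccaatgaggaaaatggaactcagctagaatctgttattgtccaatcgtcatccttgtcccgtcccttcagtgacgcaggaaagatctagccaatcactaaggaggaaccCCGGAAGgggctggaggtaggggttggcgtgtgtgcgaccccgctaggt
Mrps24, chr11:5707652-5707951, minus strand: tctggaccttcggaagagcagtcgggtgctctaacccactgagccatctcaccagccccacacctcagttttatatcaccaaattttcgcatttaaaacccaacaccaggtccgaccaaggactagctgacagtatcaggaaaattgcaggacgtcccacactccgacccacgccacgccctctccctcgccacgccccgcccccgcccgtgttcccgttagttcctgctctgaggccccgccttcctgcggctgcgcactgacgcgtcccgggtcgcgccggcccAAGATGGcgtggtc
Mrps7, chr11:115603890-115604189, plus strand: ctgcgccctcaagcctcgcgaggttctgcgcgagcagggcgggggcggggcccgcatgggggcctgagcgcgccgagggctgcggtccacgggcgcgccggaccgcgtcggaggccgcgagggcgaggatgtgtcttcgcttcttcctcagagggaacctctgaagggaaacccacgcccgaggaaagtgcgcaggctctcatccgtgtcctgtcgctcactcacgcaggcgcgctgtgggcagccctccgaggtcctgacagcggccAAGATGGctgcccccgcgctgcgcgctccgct
Mrps6, chr16:92058086-92058385, plus strand: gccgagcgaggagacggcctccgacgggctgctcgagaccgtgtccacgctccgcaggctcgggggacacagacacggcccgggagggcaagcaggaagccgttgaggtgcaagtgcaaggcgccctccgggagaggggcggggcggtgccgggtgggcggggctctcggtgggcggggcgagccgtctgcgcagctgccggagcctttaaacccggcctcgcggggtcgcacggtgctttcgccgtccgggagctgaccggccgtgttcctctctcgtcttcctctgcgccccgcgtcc

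Of the 76 genes, 67 had such an entry, with 73 windows between them. CCGGAAG, a motif of ETS factors, was found in 24 of the 73 windows (32.9%), against 8.86% of all 32851 windows of this length, and in the windows printed above for Mrpl34, Mrps12 and, on the other strand, Mrps26. AAGATGG, a motif of YY1, was found in 13 windows (17.8%, against 6.34% of all windows), among them those of Mrps12, Mrps24 and Mrps7. The E-box CACGTG, to which Myc with its partner Max can bind, was found in 7 windows (9.59%, against 7.15%), which belonged to Mrpl2, Mrpl20, Mrpl36, Mrpl37 and Mrps18c. The TEAD motif GGAATG was found in 8 windows (11%, against 14.7%). Both strands were searched for each motif, and no motif was found in the window of Mrps6. A match describes these letters only.

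In WT livers the genes spanned about the same range in both systems. The highest in R26 WT livers were Mrpl12, of the stalk of the large subunit, at 28.4 ± 0.93 RPKM, Mrps7, of the small subunit head, at 21.8 ± 1.18, and Mrpl30 at 21.6 ± 1.31 (SD, n = 4). The lowest were Mrps25 at 1.44 ± 0.09, Mrpl13 at 1.82 ± 0.16 and Mrpl19 at 2.56 ± 0.16 RPKM. In LAP WT livers the highest were again Mrpl12 (28.8 ± 4.59 RPKM), Mrpl30 (22.1 ± 6.38) and Mrps7 (20.1 ± 3.67), and the lowest Mrps25 (1.31 ± 0.11), Mrpl13 (1.95 ± 0.18) and Mrps22 (2.29 ± 0.33; SD, n = 3). The spread between LAP WT livers was wider than that between R26 WT livers.

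Summed over the 76 genes, RPKM gave the first view of the groups. The sum was 516, 460 and 523 RPKM in R26 tet-Myc/YAP livers, 809, 722, 768 and 824 in R26 tet-Myc livers, 576 to 694 in R26 tet-YAP livers, and 796, 761, 810 and 790 in R26 WT livers. The tet-Myc/YAP livers thus lay below all others, the tet-YAP livers lay between, and tet-Myc and WT livers overlapped. In the LAP system the sum was 324 to 509 RPKM in tumours, 898, 627 and 770 in tet-Myc/YAP livers, 645, 516, 453 and 437 in tet-YAP livers, 728, 686 and 615 in tet-Myc livers, and 945, 762 and 665 in WT livers. Tet-YAP livers and tumours lay below every WT liver, and tet-Myc/YAP livers overlapped WT livers. In bulk tissue, fewer cells of a type and less RNA per cell cannot be told apart.

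**Figure D1:**
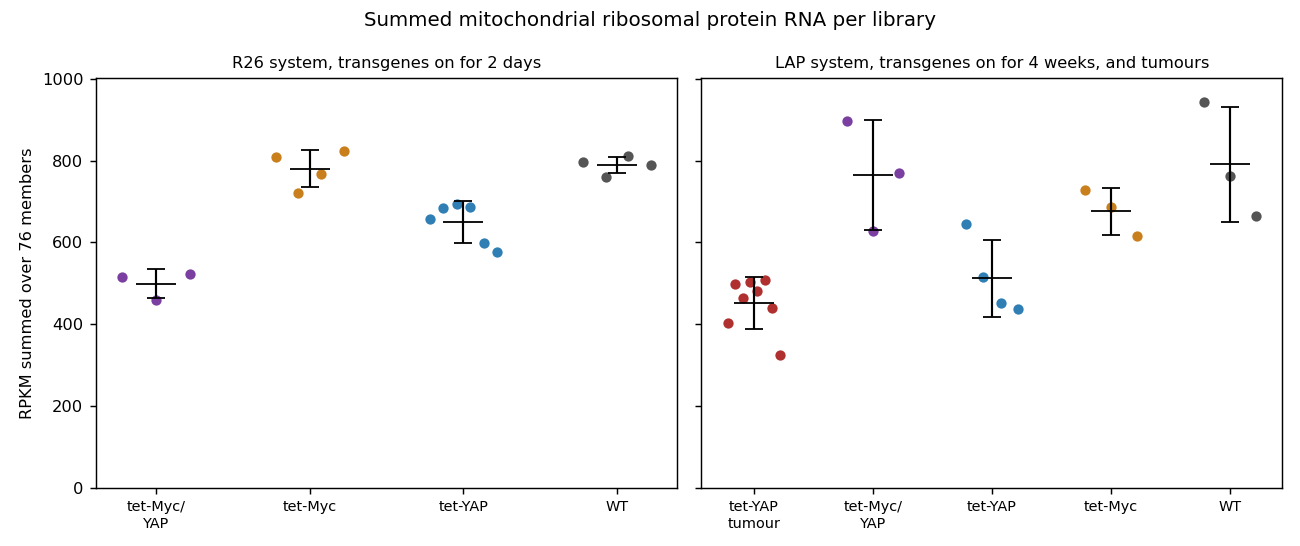
RPKM summed over the 76 mitochondrial ribosomal protein genes in each library (points), by group, in the R26 system and the LAP system; the horizontal line is the group mean and the bars are 1 SD to each side. R26 tet-Myc/YAP livers sit at 460 to 523 RPKM, below all R26 WT livers, whereas LAP tet-Myc/YAP livers sit at 627 to 898 RPKM, within reach of the LAP WT livers and mostly above the LAP tet-YAP livers and tumours.

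After 2 days of induction, no mitochondrial ribosomal protein gene was called with either transgene alone, though with tet-YAP 74 of the 76 lay below WT without reaching 0.5. In tet-Myc/YAP livers 51 of the 76 were called lower and none higher, against 37.6% of all genes called lower. Rescaled to the same median, 8 were lower and 1 higher, and with quantile normalization 2 were lower and 1 higher. In R26 tet-Myc against WT livers the 76 differences ran from −0.34 to 0.35 (log2), with a median of 0.02 against −0.02 over all genes tested. No gene was called, against 4.87% of all genes; at an adjusted p below 0.05 alone limma counted 2 higher and 1 lower (4.91% and 6.59% of all genes), and at an unadjusted p below 0.05 it counted 5 higher and 6 lower (12.6% and 15.3%). The largest increases, in Mrpl47 (0.35), Mrps30 (0.34) and Mrps26 (0.27), did not reach 0.5. Without the library labelled tet-Myc 4 the count was 0 as well. Comparisons with WT within a system share the same WT libraries.

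In R26 tet-YAP against WT livers the differences were small and mostly negative. They ran from −0.47 to 0.10, with a median of −0.26 against −0.11 over all genes. None was called, against 6.19% of all genes, because none reached 0.5 in size; by the adjusted p of limma alone 40 of the 76 were lower and none higher, against 15.4% lower over all genes, and at an unadjusted p below 0.05 there were 59 lower and 0 higher (28.7% and 6.85% of all genes). In 36 of the 76 every tet-YAP library lay below every WT library, and in none above. This was so for 16.7% of all genes. In all, 1 gene was called without WT 2, without WT 4 or without tet-YAP 4. The lowest values were those of Mrps21 (−0.47), Mrpl14 (−0.43) and Mrps11 (−0.43).

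In R26 tet-Myc/YAP against WT livers the median difference of the 76 genes was −0.58, against −0.39 over all genes tested. The 51 called lower compare with 37.6% of all genes called lower and 4.61% called higher. All 3 tet-Myc/YAP libraries lay below all 4 WT libraries for 68 of the 76, against 55.2% of all genes. By part, 18 of 29 genes for large-subunit proteins with bacterial homologues were called lower (median −0.59). So were 14 of 20 genes for large-subunit proteins specific to mitochondria (−0.59). In the small subunit it was 12 of 16 genes with bacterial homologues (−0.57) and 7 of 10 specific to mitochondria (−0.61). All genes tested at 6 to 12 and 12 to 25 RPKM had medians of −0.50 and −0.61. The parts were not set against genes of like level. Mrps36 was not called (−0.32).

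Mrps24, the homologue of bacterial S3 at the mRNA entry side of the small subunit, measured 7.24, 6.45 and 6.95 RPKM in tet-Myc/YAP livers, 14.8, 12.6, 13 and 13.8 in tet-Myc livers, 10.9 to 13 (median 12.3) in tet-YAP livers, and 14.0, 14.0, 14.8 and 14.9 in WT livers. The tet-Myc/YAP livers lay below every other liver of the system, and the difference from WT was −1.02 ± 0.07 (log2, SE; limma adjusted p = 1.3e-07). Mrpl34, a small protein deep in the large subunit, measured 9.28, 9.55 and 8.82 RPKM in tet-Myc/YAP livers, 20.7, 15.1, 18.3 and 18.2 in tet-Myc livers, 15 to 17.7 (median 17.1) in tet-YAP livers, and 20.7, 20.1, 19.6 and 17.4 in WT livers. Again the double transgenics stood alone at the bottom, with a difference of −1.03 ± 0.09 from WT (limma adjusted p = 5.2e-07).

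Other small-subunit genes of the bacterial core behaved alike. Mrps7, a head protein that starts assembly on the small ribosomal RNA in bacteria, measured 11.69, 10.04 and 11.63 RPKM in tet-Myc/YAP livers, 20.6, 17.6, 19.1 and 20.7 in tet-Myc livers, 14.7 to 17.4 (median 16.2) in tet-YAP livers, and 20.8, 21, 21.9 and 23.4 in WT livers. It differed from WT by −0.94 ± 0.08 (limma adjusted p = 4.4e-07), and its tet-YAP libraries also lay below all WT libraries. Mrps12, at the decoding centre, measured 9.5, 8.31 and 8.95 RPKM in tet-Myc/YAP livers, 19.1, 15.2, 17.3 and 13.5 in tet-Myc livers, 14.7 to 17.9 (median 15.8) in tet-YAP livers, and 18.2, 19.4, 18.1 and 16.4 in WT livers. Its difference from WT was −0.98 ± 0.11 (limma adjusted p = 1.9e-06), and tet-Myc and WT libraries overlapped.

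Mrps34, a small-subunit protein specific to mitochondria, is a low-level gene and the other that kept its call under all 4 scalings. It measured 1.56, 1.70 and 1.53 RPKM in tet-Myc/YAP livers, 3.76, 3.3, 3.0 and 3.14 in tet-Myc livers, 2.87 to 3.60 (median 3.19) in tet-YAP livers, and 4.21, 3.53, 3.40 and 3.51 in WT livers. The tet-Myc/YAP libraries were lowest without overlap, at −0.98 ± 0.09 from WT (limma adjusted p = 7.1e-07). Mrpl43, a mitochondria-specific large-subunit protein, measured 5.34, 4.76 and 4.60 RPKM in tet-Myc/YAP livers, 9.33, 8.65, 8.51 and 10.7 in tet-Myc livers, 7.1 to 9.0 (median 7.78) in tet-YAP livers, and 9.35, 9.43, 8.70 and 9.62 in WT livers. It differed from WT by −0.86 (limma adjusted p = 1.5e-06); 385 of its 1398 exon bases are shared with Twnk, the mitochondrial DNA helicase, on the GRCm38 annotation.

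Mrps18a, which despite its name sits in the large subunit, measured 7.47, 6.86 and 6.95 RPKM in tet-Myc/YAP livers, 11.9, 10.4, 10.9 and 12 in tet-Myc livers, 8.52 to 11.6 (median 10.5) in tet-YAP livers, and 14.1, 12.6, 14.0 and 13.8 in WT livers. Here both single transgenics also lay below all WT livers, and the double differed from WT by −0.90 (limma adjusted p = 1.6e-06). Mrpl57, a short mitochondria-specific large-subunit protein, measured 3.42, 3.35 and 3.43 RPKM in tet-Myc/YAP livers, 6.93, 5.31, 5.18 and 6.21 in tet-Myc livers, 4.62 to 4.89 (median 4.73) in tet-YAP livers, and 5.73, 6.14, 6.11 and 5.77 in WT livers. Its order was tet-Myc/YAP below tet-YAP below WT, with no overlap, and its difference from WT was −0.72 (limma adjusted p = 2.5e-06).

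The 25 genes not called in this comparison included Mrps6, a small-subunit platform protein, at 4.66, 4.13 and 3.54 RPKM in tet-Myc/YAP livers against 3.45, 3.23, 3.69 and 3.47 in WT livers. The libraries of these groups overlapped, and at 0.21 (limma adjusted p = 0.16) its value was the only one of the 76 above 0. Mrps9 (−0.03) and Mrps30 (−0.06) were next.

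**Figure D2:**
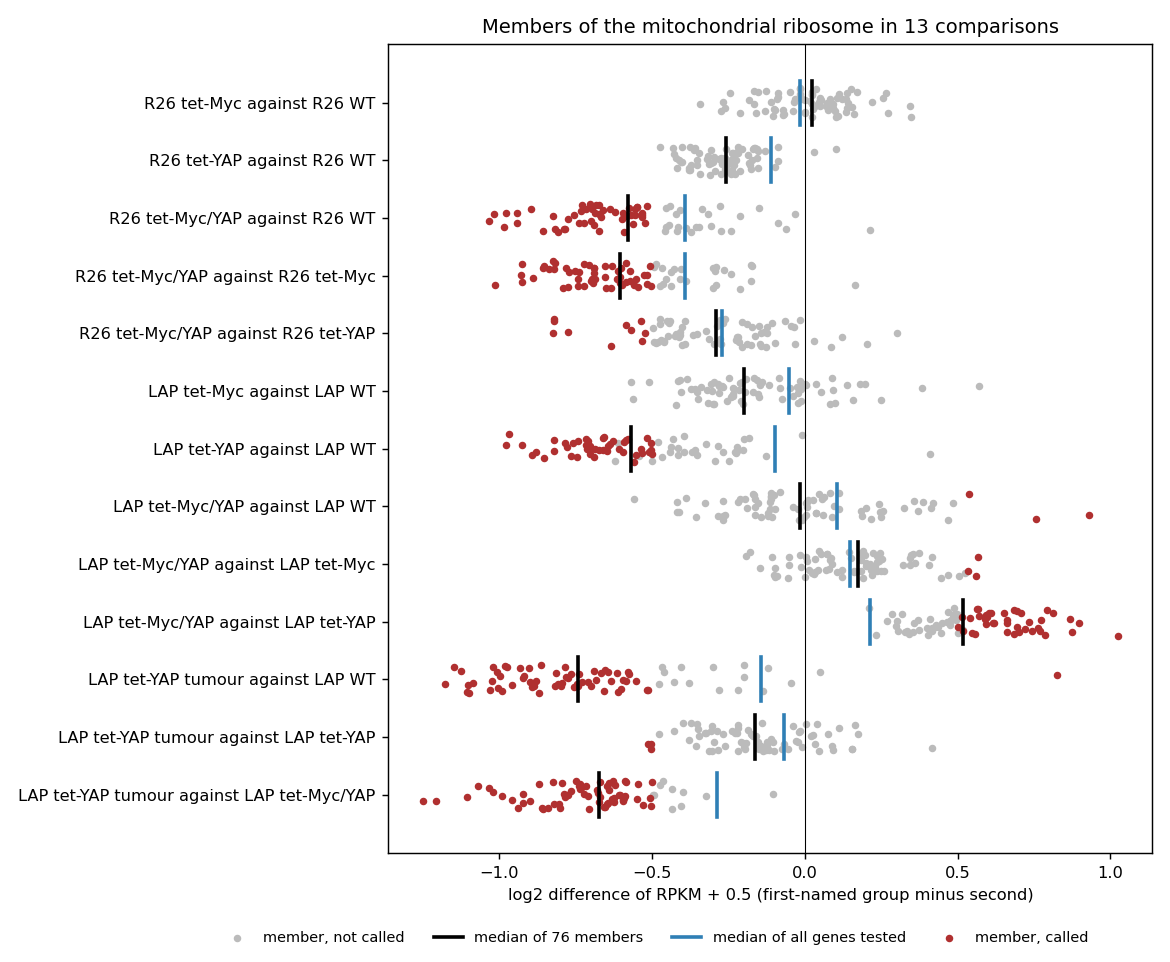
Log2 differences on the log2(RPKM + 0.5) scale of the 76 genes (points) in 13 comparisons, with called genes in red, the median of the 76 as a black tick and that of all genes tested as a blue tick. The points of R26 tet-Myc/YAP against WT run from −1.03 to 0.21, those of LAP tet-Myc/YAP against tet-YAP lie all above 0, and those of tumours against tet-Myc/YAP livers lie all below 0.

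The same 3 double transgenic livers were also set against each single transgenic, so these comparisons share libraries. Against tet-Myc livers 52 of 76 were lower and none higher (36.3% of all genes lower), with a median of −0.60 against −0.39 over all genes; without the library labelled tet-Myc 4 the count was 50. Rescaling to the same median left 7 lower, and quantile normalization 3 lower and 1 higher; 2 genes were called lower under all 4 scalings. The lowest were Mrps26 (−1.01, limma adjusted p = 9.9e-07), Mrpl34 (−0.93, 1.5e-06), Mrps21 (−0.93, 7.0e-06) and Mrps24 (−0.93, 4.0e-07). Against tet-YAP livers 10 of 76 were lower and none higher (23.2% of all genes lower), with medians of −0.29 for the 76 and −0.27 over all genes, so the share of these genes called lay below the background. Mrps12 (−0.82, limma adjusted p = 7.1e-06), Mrpl34 (−0.82, 2.8e-06), Mrps34 (−0.82, 2.8e-06) and Mrps24 (−0.78, 6.0e-07) were lowest. The count was 16 without tet-YAP 6, 16 without tet-Myc/YAP 3 and 7 without tet-Myc/YAP 2.

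The interaction, which tests whether the double differs from the sum of both single effects on the log2 scale, was negative and called for 12 of the 76, a smaller share than the 21.1% of all genes, and positive for none. Its median was −0.32 against −0.26 over all genes. Rescaling left 1 gene negative and called, and quantile normalization 2 negative and 1 positive. Mrps26, a mitochondria-specific small-subunit protein chosen here after its values were seen, was the gene that kept its call under all 4 scalings. It measured 7.26, 6.64 and 7.56 RPKM in tet-Myc/YAP livers, 17.1, 13.6, 14.1 and 15.1 in tet-Myc livers, 9.85 to 12.7 (median 10.8) in tet-YAP livers, and 13.8, 11.5, 12.1 and 11.9 in WT livers. Its interaction was −0.86 (limma adjusted p = 0.00018), and those of Mrpl34 (−0.72, 0.00054), Mrps34 (−0.69, 0.00071) and Mrps24 (−0.69, 0.00014) followed.

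Most of the median fall in R26 tet-Myc/YAP livers was shared with other genes of the same level. All genes tested shifted by a median of −0.39, and the shift grew with the level: genes at 1 to 3 RPKM had a median of −0.19, those at 3 to 6 of −0.34, those at 6 to 12 of −0.50 and those at 12 to 25 of −0.61. The mitochondrial ribosomal protein genes in these classes had medians of −0.28 (7 genes), −0.49 (20), −0.58 (27) and −0.71 (22). Set against the median of its own class, the median gene of the 76 differed by a further −0.09, with 60 below their class and 16 above. When every library was rescaled to the same median, 8 of the 76 were lower and 1 higher (11.6% of all genes lower), and with quantile normalization 2 were lower and 1 higher (10.1% of all genes lower). Under both, the share of the 76 called lower was below that of all genes. In reads, the 76 genes together held 22875, 20935 and 13237 reads per kilobase in tet-Myc/YAP libraries of 44350000, 45560000 and 25320000 reads, and 21896 to 23499 in WT libraries of 27130000 to 29530000 reads; the part of depth in the result was not tested. Of the 51, Mrps24 (−0.67 rescaled, −0.52 quantile) and Mrps34 (−0.69 and −0.78) kept their call under each scaling tried, and Mrps6 was the gene called higher (0.54 under both).

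**Figure D3:**
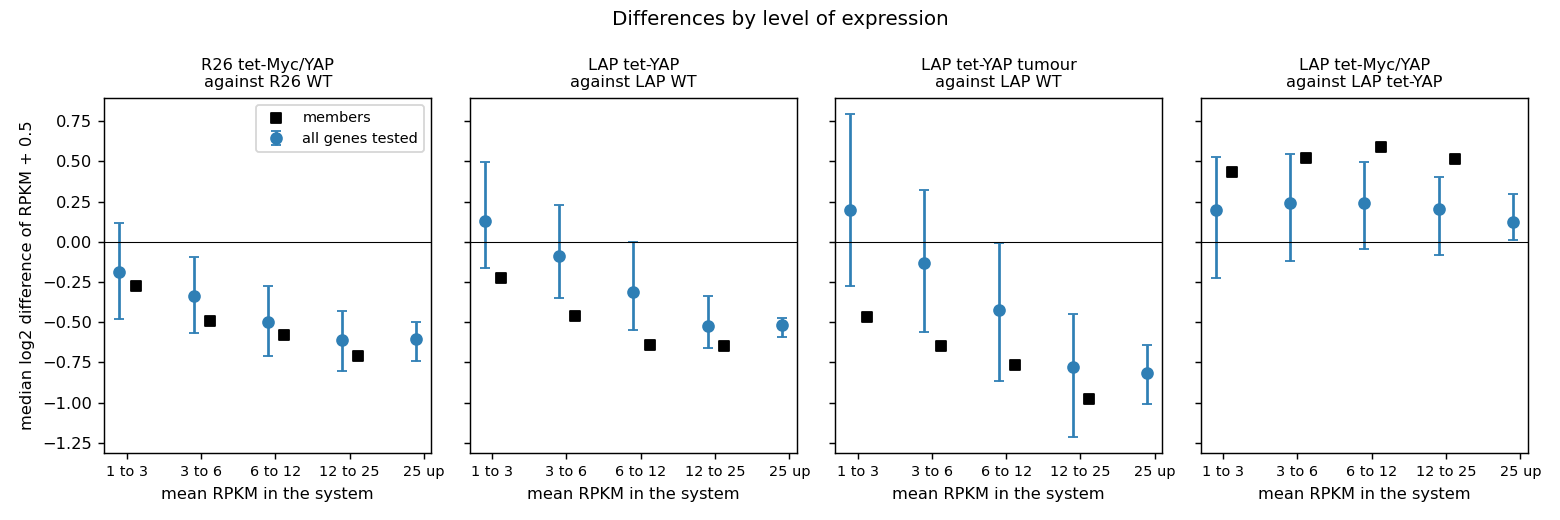
Median log2 difference by class of mean level (RPKM) in 4 comparisons: circles are all genes tested, with bars from the lower to the upper quartile, and squares are the mitochondrial ribosomal protein genes. In R26 tet-Myc/YAP against WT livers the squares follow the circles downward with level (−0.28 to −0.71), while in LAP tet-Myc/YAP against tet-YAP livers the circles stay near 0.20 to 0.24 and the squares at 0.43 to 0.59.

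Some genes of other cell types and states moved with the R26 groups. Of 5 cycling-cell genes all 5 rose in tet-Myc/YAP against WT livers, their summed RPKM being 16.5 to 50.2 in tet-Myc/YAP and 4.2 to 6.25 in WT livers. Of 7 hepatocyte markers 5 fell (sum 153 to 242 in tet-Myc/YAP, 220 to 342 in WT livers), and so did 5 of 6 macrophage markers (38.4 to 42.5 against 80.0 to 100.1) and 4 of 6 endothelial markers. The hepatocyte sums include genes near a ceiling in read density, described below, where RPKM falls as depth rises. Apoa1 measured 34.3, 33.8 and 55.7 RPKM in the tet-Myc/YAP libraries of 44350000, 45560000 and 25320000 reads. These were also the rounded values of the sixth-highest gene of each. The part of depth in these sums was not tested. The markers Cftr, Mpo, Cd3e, Cd3g and Ms4a1 stayed below 0.5 RPKM in every R26 library. The part of these changes in the result was not tested.

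After 4 weeks in the LAP system, tet-YAP livers had lower levels of 45 of the 76 genes than WT livers, and tet-Myc livers of none. In LAP tet-Myc against WT livers the differences ran from −0.57 to 0.57 with a median of −0.20, against −0.05 over all genes. None of the 76 was called, against 0.0238% of all genes, and none passed the adjusted p of limma alone; at an unadjusted p below 0.05 there were 2 higher and 5 lower (5.52% and 7.7% of all genes). The ends of the range were Mrps34 (−0.57) and Mrps6 (0.57, limma adjusted p = 0.28).

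In LAP tet-YAP against WT livers the median of the 76 was −0.57, against −0.10 over all genes, and 45 were lower and none higher, against 15.3% of all genes lower. In the large subunit, genes for 13 of 20 proteins specific to mitochondria and 17 of 29 with bacterial homologues were called lower. In the small subunit it was 5 of 10 and 10 of 16. The lowest were Mrps34 (−0.98 ± 0.25, SE; limma adjusted p = 0.0078), Mrpl38 (−0.97 ± 0.19; 0.0017), which lies near the central protuberance of the large subunit, Mrps26 (−0.93 ± 0.20; 0.0026) and Mrps5 (−0.89 ± 0.20; 0.0038), a homologue of bacterial S5 at the mRNA entry. At the other end Mrps6 (0.41, limma adjusted p = 0.12), Mrps36 (−0.01) and Mrps25 (−0.13) were not called.

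Genes of like level shifted less in this comparison. By class from 1 to 3 up to 12 to 25 RPKM, all genes had medians of 0.13, −0.09, −0.31 and −0.53, and the 76 genes −0.22, −0.46, −0.64 and −0.65. Against its own class the median gene of the 76 differed by −0.33, with 69 below and 7 above. Rescaling to the same median left 44 lower (15.1% of all genes lower), and quantile normalization 12 (6.07%). The count rested on single libraries: it was 11 without WT 1, the WT liver with the highest sum, 33 without WT 2, 30 without tet-YAP 3, 29 without tet-YAP 4 and 53 without tet-YAP 1, and it was 29 when the close pair tet-YAP 3 and 4 was averaged. Mrpl15, Mrpl38, Mrpl55, Mrps26 and Mrps5 were called lower under all 4 scalings and without each library in turn.

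These genes were higher in LAP tet-Myc/YAP than in LAP tet-YAP livers. The measured Myc value was not called different (−0.32, limma adjusted p = 0.45), and whether it includes the transgene is not known. In LAP tet-Myc/YAP against tet-YAP livers 40 of the 76 were higher and none lower, against 20.5% of all genes higher, and all 76 differences were above 0 (0.21 to 1.02), with a median of 0.52 against 0.21 over all genes. By part, 15 of 29 and 11 of 20 large-subunit genes (bacterial homologues, then mitochondria-specific) rose, as did 7 of 16 and 6 of 10 small-subunit genes, and Mrps36. The highest were Mrps26 (1.02 ± 0.20, SE; limma adjusted p = 0.00098), Mrps30 (0.90; 0.0055), a large-subunit protein despite its name, Mrps35 (0.87; 0.0039), of the small subunit, and Mrpl21 (0.87; 0.013), a homologue of bacterial L21.

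Mrps26 measured 18.3, 12.1 and 13.7 RPKM in tet-Myc/YAP livers, 8.82, 7.26, 6.24 and 5.52 in tet-YAP livers, 11.1, 10.7 and 8.55 in tet-Myc livers, and 16.5, 12.2 and 12.2 in WT livers. The tet-Myc/YAP libraries lay above all tet-YAP and tet-Myc libraries and overlapped WT. Mrps30 measured 12.4, 8.53 and 11.6 RPKM in tet-Myc/YAP livers and 6.23, 5.8, 5.66 and 4.53 in tet-YAP livers, without overlap, against 9.27, 8.14 and 7.48 in WT livers.

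The shift in this comparison did not depend on level in the same way. All genes had class medians of 0.20, 0.24, 0.24 and 0.20, and the 76 genes of 0.43, 0.52, 0.59 and 0.52; 75 of the 76 lay above the median of their class, by a median of 0.29. Rescaled, 18 rose (11.8% of all genes higher), with quantile normalization 17 (12.2%), and none fell under either; all 76 stayed above 0. The count was 12 without tet-Myc/YAP 1, the library with the highest sum of its group, and 57 without tet-Myc/YAP 2; it was 57 without tet-YAP 1, 24 without tet-YAP 3, 23 without tet-YAP 4 and 23 with the close pair averaged. In all, 16 genes were called under all 4 scalings, 11 of them also without each library in turn.

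**Figure D4:**
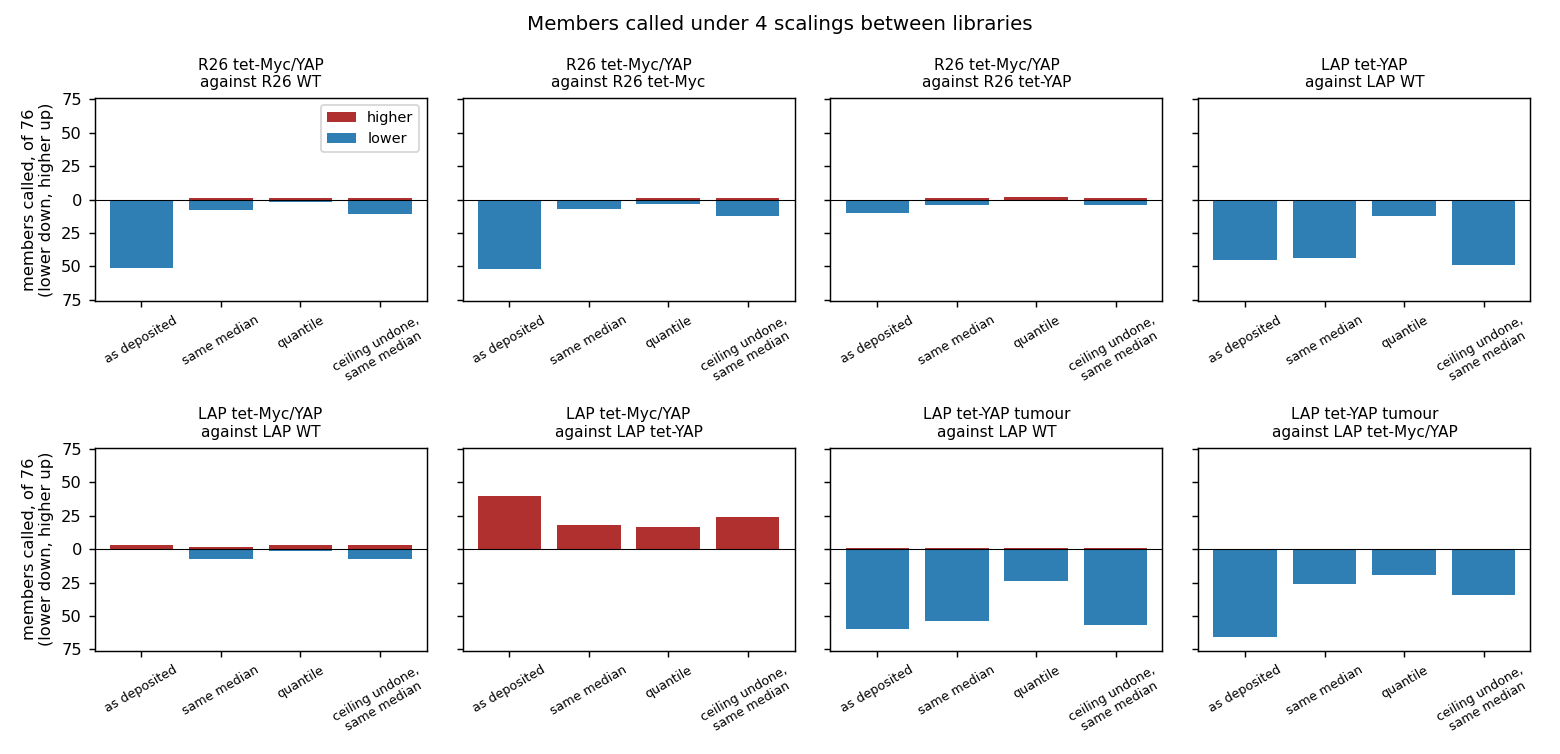
Number of the 76 genes called higher (bars upward) and lower (bars downward) in 8 comparisons under the deposited scale and 3 rescalings. R26 tet-Myc/YAP against WT has 51 lower on the deposited scale and 2 to 11 lower after rescaling, while LAP tet-Myc/YAP against tet-YAP has 40 higher on the deposited scale and 17 to 24 after rescaling.

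Against WT livers the LAP tet-Myc/YAP livers differed in few of these genes. In all, 3 were higher and none lower, against 22.5% of all genes higher and 14% lower, with a median of −0.02 against 0.11 over all genes. Without tet-Myc/YAP 1 the count was 2 higher and 3 lower, without WT 3 it was 2 higher and 1 lower, and without WT 1 or without tet-Myc/YAP 2 it was 5 higher and none lower. Rescaled to the same median, 2 were higher and 7 lower (18.1% and 20.8% of all genes).

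Mrps6 rose most: it measured 4.33 to 8.38 RPKM (median 6.97) in tumours, 7.55, 5.83 and 7.11 in tet-Myc/YAP livers, 5.23, 3.88, 4.29 and 5.08 in tet-YAP livers, 5.93, 5.78 and 4.05 in tet-Myc livers, and 3.56, 3.72 and 2.77 in WT livers. Every other liver and tumour lay above all WT livers, and tet-Myc/YAP livers differed from WT by 0.93 ± 0.21 (SE; limma adjusted p = 0.0019). Of its 846 exon bases 159 are shared, on the same strand, with Slc5a3, an inositol transporter, which measured 5.42 to 8.64 RPKM in tumours, 4.64 to 5.51 in tet-Myc/YAP livers and 2.27 to 2.28 in WT livers; its part in the result was not tested.

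Mrps36, the gene of the 76 that is not of the ribosome, measured 3.18 to 5.47 RPKM (median 4.48) in tumours, 9.84, 6.87 and 7.70 in tet-Myc/YAP livers, 5.36, 3.93, 4.22 and 4.74 in tet-YAP livers, 6.49, 6.23 and 5.60 in tet-Myc livers, and 5.13, 3.86 and 4.78 in WT livers. The tet-Myc/YAP libraries lay above all others, at 0.76 ± 0.18 from WT (limma adjusted p = 0.0026). Mrpl50, a mitochondria-specific large-subunit protein, measured 8.91 to 13.1 RPKM (median 12.9) in tumours, 22.5, 17 and 20.6 in tet-Myc/YAP livers, 14.5, 11.9, 10.9 and 10.5 in tet-YAP livers, 16, 16 and 11.8 in tet-Myc livers, and 14.4, 14.2 and 12.1 in WT livers. Again the tet-Myc/YAP libraries lay above all others, with a difference of 0.54 ± 0.17 from WT (limma adjusted p = 0.019). Mrps6 and Mrps36 kept their call under all 4 scalings and without each library in turn.

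The next genes by adjusted p were not called. Mrps9, of the small subunit, measured 4.71, 4.12 and 4.17 RPKM in tet-Myc/YAP livers against 3.6, 3.0 and 2.83 in WT livers (0.41, limma adjusted p = 0.019). Mrpl19, of the large subunit, measured 4.14, 3.04 and 3.48 RPKM in tet-Myc/YAP livers against 2.73, 2.51 and 1.94 in WT livers (0.49, limma adjusted p = 0.027). For both genes the groups did not overlap, though neither difference reached 0.5. Mrpl3, at the heart of the large subunit, measured 6.77, 5.24 and 5.66 RPKM in tet-Myc/YAP livers against 4.90, 4.36 and 3.88 in WT livers (0.39, limma adjusted p = 0.041), again without overlap. Mrps7 measured 18.5, 11.5 and 15.2 RPKM in tet-Myc/YAP livers against 24.0, 19.5 and 16.7 in WT livers (−0.41, limma adjusted p = 0.061), with overlap. Mrps27, an RNA-binding pentatricopeptide protein, measured 8.12, 6.16 and 8.13 RPKM in tet-Myc/YAP livers against 4.82, 5.22 and 5.64 in WT livers (0.47, limma adjusted p = 0.071), without overlap.

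Against tet-Myc livers the LAP tet-Myc/YAP livers had 3 of the 76 higher and none lower (19% of all genes higher), with a median of 0.17 against 0.15 over all genes. These were Mrps9 (0.57, limma adjusted p = 0.0036), Mrps15 (0.56, 0.029), a homologue of bacterial S15, and Mrpl23 (0.54, 0.043), a homologue of bacterial L23. None of the 76 was called under any of the 3 rescalings or without tet-Myc 3, 1 without tet-Myc/YAP 1 and 5 without tet-Myc/YAP 2.

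The interaction of Myc and YAP in the LAP system was positive and called for 27 of the 76, against 12% of all genes, and negative for none, with a median of 0.74 against 0.25 over all genes. Mrps26 (1.43, limma adjusted p = 0.0081), Mrpl38 (1.21, 0.014), Mrpl9 (1.12, 0.015) and Mrps5 (1.08, 0.025) were highest. The count rested on single libraries: without one it ran from 1 (tet-Myc/YAP 1) to 45 (tet-Myc/YAP 2), with 4 without WT 1, 8 without WT 2, 5 without tet-YAP 3, 7 without tet-YAP 4, 14, 12 and 5 without tet-Myc 1, 2 and 3, 18 without tet-YAP 2, 44 without tet-YAP 1 and 42 without tumour 8. Mrps26 alone was called under all 4 scalings and without each library in turn. The interactions of the 2 systems were each tested within its own table and the difference between the systems was not tested.

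**Figure D5:**
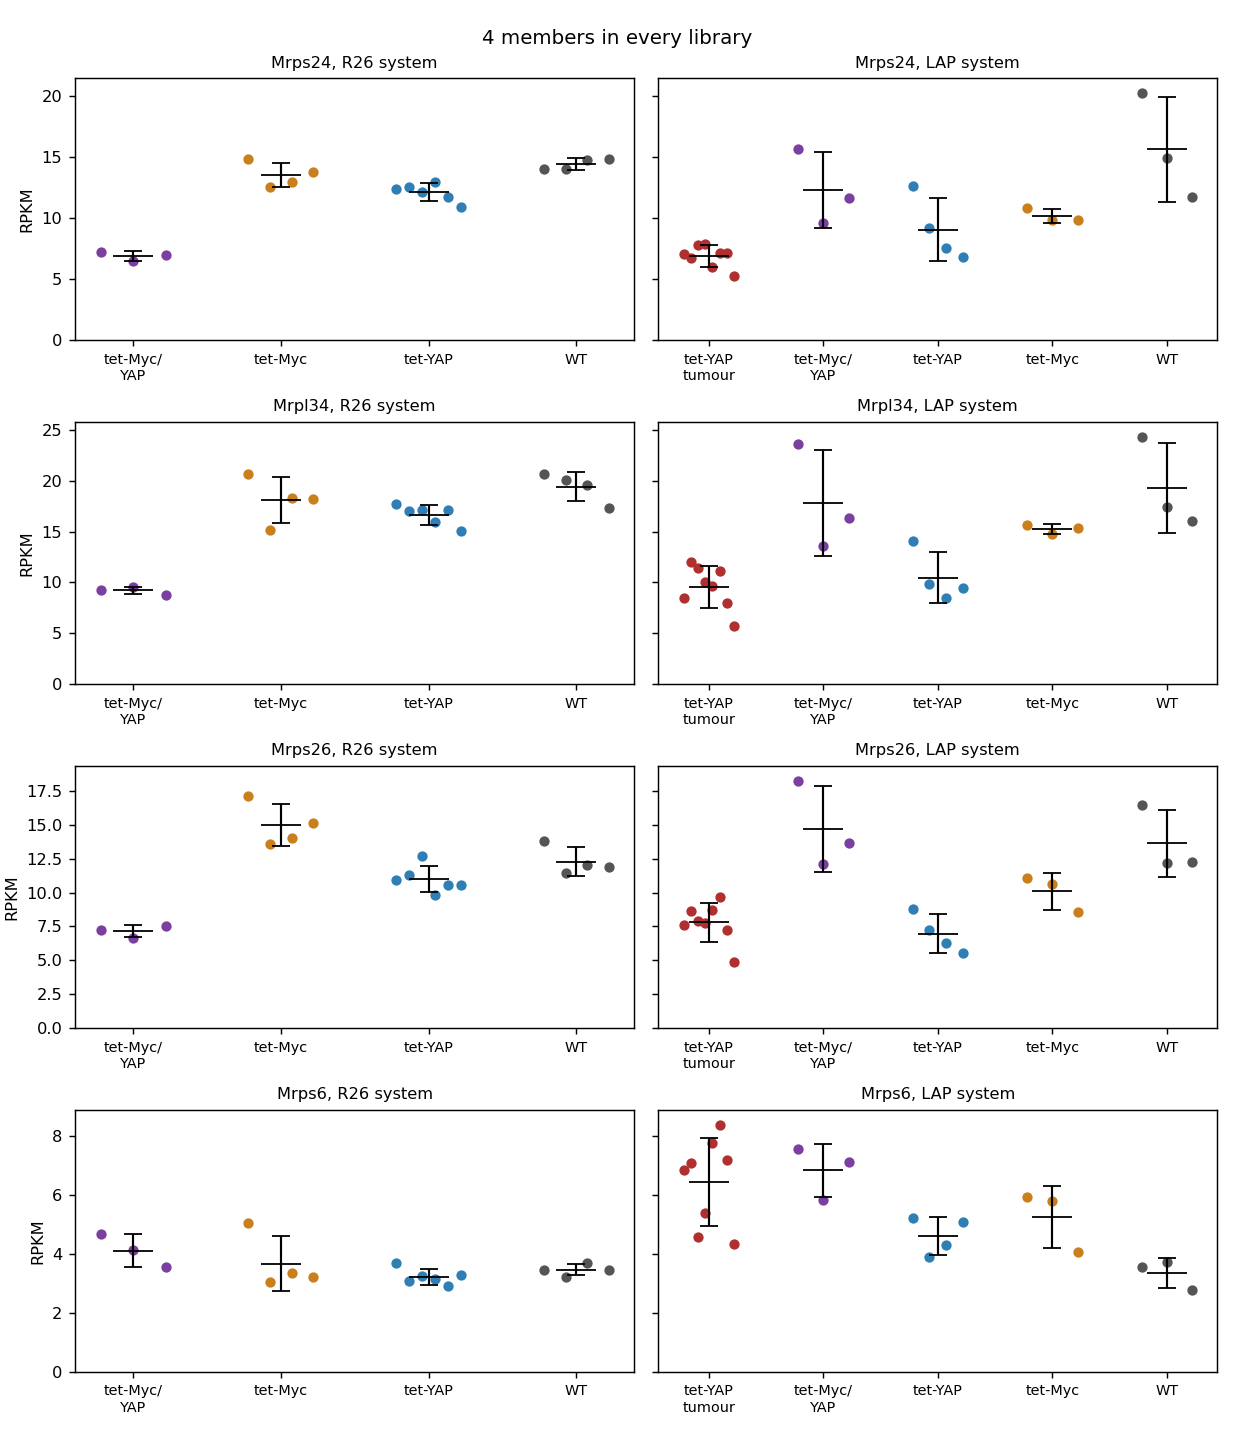
RPKM of Mrps24, Mrpl34, Mrps26 and Mrps6 in every library (points), by group, in the R26 and LAP systems, with the group mean (horizontal line) and 1 SD to each side. Within the R26 system Mrps24 and Mrpl34 are lowest in tet-Myc/YAP livers, Mrps26 is low in R26 tet-Myc/YAP livers (6.64 to 7.56) and not in LAP tet-Myc/YAP livers (12.1 to 18.3), and Mrps6 is above its WT level in LAP livers with a transgene and in tumours.

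Tumours had the lowest mean sum over these genes, 453 ± 63 RPKM (SD, n = 8), against 791 ± 142 in LAP WT livers (n = 3). In tumours against LAP WT livers 60 of the 76 were lower and 1, Mrps6, higher, against 31.3% of all genes lower and 21.5% higher, with a median of −0.74 against −0.14 over all genes. The lowest were Mrps5 (−1.18 ± 0.18, SE; limma adjusted p = 1.4e-05), Mrpl28 (−1.15; 4.6e-05), a homologue of bacterial L28, Mrpl55 (−1.13; 6.0e-06), specific to mitochondria, and Mrps24 (−1.11; 2.7e-05). By part, 24 of 29 and 15 of 20 large-subunit genes fell (bacterial homologues, then mitochondria-specific), and 12 of 16 and 9 of 10 small-subunit genes. Mrps5 measured 2.51 to 5.90 RPKM (median 4.01) in tumours, against 11, 9.56 and 8.42 in WT livers, without overlap. Mrps6, whose values stand above, was higher by 0.83 ± 0.18 (limma adjusted p = 0.00048), with all 8 tumours above all WT livers.

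Relative to the median of their level class, 69 of the 76 were lower in tumours and 7 higher, with a median of −0.33. All genes at 12 to 25 RPKM had a median of −0.78 and the 76 genes in that class −0.98. Rescaled to the same median 54 of the 76 were lower (27.5% of all genes), and with quantile normalization 24 (20.6%), with Mrps6 higher under both. Leaving out single libraries gave 50 to 63 lower; 20 genes lower and Mrps6 were called under all 4 scalings.

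Against tet-YAP livers, which share their genotype, tumours differed in few of these genes. In all, 3 of the 76 were lower and none higher, against 15.5% of all genes lower, with a median of −0.16 against −0.07 over all genes. These were Mrps27 (−0.51, limma adjusted p = 0.013), Mrpl16 (−0.50, 0.023), a homologue of bacterial L16, and Mrps21 (−0.50, 0.0077), a homologue of bacterial S21. None was called without tet-YAP 1, tumour 1 or tumour 8, or with a pseudocount of 1, and with quantile normalization or with the sex pattern as a covariate 1 was higher and none lower. Against tet-Myc/YAP livers 66 of the 76 were lower in tumours (26.4% of all genes) and all 76 differences were below 0, with a median of −0.67 against −0.29 over all genes. Mrps30 (−1.25, limma adjusted p = 0.00017), Mrps27 (−1.21, 6.5e-05), Mrps11 (−1.11, 6.5e-05), a homologue of bacterial S11, and Mrps5 (−1.07, 0.00027) were lowest. Rescaled, 26 were lower (9.13% of all genes).

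Markers of other cells moved in the LAP system as well. Hepatocyte markers summed to 87.3 to 159 RPKM in tumours, 158 to 190 in tet-Myc/YAP livers and 157 to 216 in tet-YAP livers, against 227 to 320 in WT livers, and of 7 such markers 7 were called lower than WT in tumours, 3 in tet-Myc/YAP and 5 in tet-YAP livers. Genes near the read density ceiling enter these sums too. Apoa1 measured 72.2 RPKM in WT 1 and 31.8 in tumour 1, where the sixth-highest gene measured 67.3 and 31.5. The part of depth in these sums was not tested. Of 6 cholangiocyte and progenitor markers 6 were called higher in tumours, 5 in tet-Myc/YAP and 3 in tet-YAP livers, with sums of 49.0 to 90.4 RPKM in tumours, 41.3 to 69.4 in tet-Myc/YAP livers and 21.8 to 33.1 in tet-YAP livers, against 9.7 to 13.4 in WT livers. The 5 cycling-cell genes were called higher in all of these groups. Between tet-Myc/YAP and tet-YAP livers no hepatocyte or cycling-cell gene was called, 3 cholangiocyte markers were higher, and 2 macrophage and 2 endothelial markers were lower. All 4 neutrophil markers tested rose in tumours (sum 6.7 to 46.8 RPKM, against 0.5 to 4.9 in WT livers), while Cd3e and Ms4a1 stayed below 0.5 RPKM in every LAP library. Endothelial markers summed to 11.4 to 34.1 RPKM in tumours against 47.1 to 58.8 in WT livers, though Pecam1, Cdh5 and Lyve1 overlapped. Macrophage markers summed to 14.5 to 44.2 RPKM in tumours and 91.3 to 124 in tet-YAP livers, against 44.4 to 79.4 in WT livers. Among them Emr1 overlapped between tumours and WT livers, and Cd68 was higher in most tumours (5.34 to 21.5 against 3.15 to 6.24 RPKM). The part of these markers in the results was not tested. With the female pattern as a covariate, 58 of the 76 were lower and 1 higher in tumours against WT livers.

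Other genes of the same machinery were taken from lists of related function. In R26 tet-Myc/YAP against WT livers, where 37.6% of all genes were called lower, 7 of 25 mitoribosome assembly genes fell (such as Rbfa, −0.69, and Ngrn, −0.63), 6 of 15 mitochondrial translation factors (Pdf, −0.86, the peptide deformylase, and Taco1, −0.79, a translational activator), 4 of 20 mitochondrial aminoacyl-tRNA synthetases (Nars2, −0.79) with 1 higher, 1 of 10 genes for mitochondrial DNA and its transcription (Tefm, −0.65), 7 of 22 import genes (Timm13, −0.84), 64 of 86 respiratory chain genes and 32 of 80 cytosolic ribosomal proteins. The assembly, synthetase, mitochondrial DNA and import lists thus lay below the share of all genes, translation factors and cytosolic ribosomal proteins close to it, and the respiratory chain above it. The lists were not set against genes of like level. The shift grew with level, to a median of −0.61 over all genes at 12 to 25 RPKM, and the part of level in these shares was not tested. Medians were −0.57 for the respiratory chain and −0.47 for cytosolic ribosomal proteins, against −0.39 over all genes. Of 6 genes for mitoribosomal proteins named by other symbols 4 fell, among them Aurkaip1 (−0.84) and Gadd45gip1 (−0.83).

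In LAP tet-Myc/YAP against tet-YAP livers, where 20.5% of all genes were called higher, the share called ran from 6 of 87 respiratory chain genes, below that of all genes, to 17 of 22 import genes. Of 25 assembly genes 16 rose (Fastkd2, 1.0, an RNA-binding protein, and Mettl17, 0.87), as did 12 of 20 synthetases (Mars2, 1.02), 17 of 22 import genes (Tomm20, 0.94, an outer membrane receptor), 6 of 15 translation factors (Guf1, 0.96) and 51 of 79 cytosolic ribosomal proteins (Rps3, 0.94). None of the genes on these lists fell. Medians were 0.34 for the respiratory chain and 0.54 for cytosolic ribosomal proteins, beside 0.52 for the 76 genes and 0.21 over all genes. In LAP tet-YAP against WT livers (15.3% of all genes lower) 71 of 87 respiratory chain genes were lower, as were 29 of 79 cytosolic ribosomal proteins and 15 of 22 import genes (Timm10, −0.98), and in tumours against WT livers (31.3% of all genes lower) 81, 41 and 15. These lists were not set against genes of like level either.

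Counting limits some of these genes. The libraries do not mark strand, and on the GRCm38 annotation 24 of the 76 share exon bases with another gene, 16 of them with a protein-coding one. Among the genes whose values are given here Mrpl19 shares 1962 of 5000 bases with Gcfc2, Mrps25 3533 of 6073 with Nr2c2, Mrps30 601 of 3319 with B430218F22Rik, Mrpl13 330 of 1223 with Mtbp, and Mrpl47 452 of 3364 with Actl6a and 158 with Ndufb5. Mrps6 shares a further 305 of 846 with Gm49711, Mrpl9 157 of 2592 with Oaz3, Mrps7 127 of 1962 with Gga3 and 119 with Mif4gd, and Mrpl21 117 of 1363 with Ighmbp2. With partners that are not protein-coding, Mrps27 shares 417 of 1849 (6430562O15Rik), Mrpl12 200 of 1316 (Gm16755) and Mrps26 8 of 4278 (4930473A02Rik). Reads from these partners may be counted with them. Mrps24, Mrps34, Mrpl34, Mrps12, Mrps18a, Mrps5, Mrpl38, Mrps36 and Mrpl50 share none.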

How the data were processed

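Liver RNA from RNeasy MinElute columns went into unstranded TruSeq RNA v2 libraries, with the poly-T step skipped. The build mm9 and the tools featureCounts 1.4.5-p1, TopHat2 2.0.8, DESeq2 and SAMtools are credited to the submitters' processing notes. RPKM values were deposited by the authors as one table for each system, beside a table of their own log2 fold changes, p-values and calls, which was not used. Of 21671 entries in each table, 27 had symbols turned into dates and were left out. Columns were assigned to groups by the group in their name, not to single samples, and libraries were numbered in column order. The depth of each library, 23920000 to 56980000 reads, was estimated from the steps of single reads, with 74.8% of 30621 values of 0.5 to 3.5 reads lying within 0.12 of a whole read.

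A gene entered the test of a system if 3 of its libraries reached 1 RPKM (11263 genes in R26, 12591 in LAP), with limma 3.58.1 in R 4.3.3 on log2(RPKM + 0.5), with all libraries of a system in one fit, a trend in the variance and no covariate. Calls needed a Benjamini-Hochberg adjusted p below 0.05 and a log2 difference of at least 0.5. No test was made across systems. The procedure was also run on simulated data with independent noise for each gene. These held no shift across a whole library and none that grew with level. That run therefore cannot check the calls against such a shift. Figures and sums used Python 3.11.15, pandas 2.3.3, numpy 2.4.6 and matplotlib 3.10.9. Promoter windows came from RefSeq, GRCm38.p6, with which 67 of the 76 genes matched; no coordinates were taken from mm9.

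The genes and lists were chosen with earlier results of these data known. The genes named are, in each comparison, the 4 called genes with the highest and the 4 with the lowest log2 difference that reach 2 RPKM in the higher group, the 3 highest and 3 lowest in WT livers, and of each other list the up to 3 called genes with the smallest adjusted p. Values per library are given for the 8 genes with the smallest adjusted p in tet-Myc/YAP against WT livers of each system and for called genes that moved against the majority. Mrps26, Mrps30 and Mrps5 per library, the motif windows, and genes at the ends of a range that were not called were chosen after their values were seen. Alternatives were a pseudocount of 1, no filter on low values, rescaling to the same median, quantile normalization, the groups compared fitted alone, the sex pattern as a covariate, close pairs averaged, the replicate block and each library left out. A further scaling, chosen after seeing the data, undid a ceiling in read density, at which the sixth gene of each library lay between 1410 and 1727 reads per kilobase, with a factor of 1.1. The 76 genes lay below that ceiling, at up to 862 (R26) and 1008 (LAP) reads per kilobase.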

Additional observations from a re-analysis of the deposited data

Results flagged for a closer look

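Among 85 combinations of a gene or sum and a group of 4 to 8 libraries, 2 libraries lay far from the rest of their group by Dixon's test, where chance gives about 1 in 20. Mrps34 measured 4.21 RPKM in R26 WT 1, above the other 3 R26 WT livers. Mrps6 measured 5.05 RPKM in R26 tet-Myc 1, above the other 3 R26 tet-Myc livers.

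The interaction in limma tests whether the effect of YAP differed between livers with and without the Myc transgene. The 4 called genes with the largest interaction in each system, 7 different genes, are given here. The share of all genes called was 12% positive in LAP and 21.1% negative in R26, against 27 and 12 of the 76. Of these, Mrps26 alone kept its call in both systems under all 4 scalings and without each library in turn; without LAP tet-Myc/YAP 1 the LAP count was 1, and rescaled to the same median the R26 count was 1. In the LAP system the interaction (log2) was 1.43 for Mrps26 (adjusted p = 0.0081), 1.21 for Mrpl38 (0.014), 1.12 for Mrpl9 (0.015) and 1.08 for Mrps5 (0.025). In the R26 system it was −0.86 for Mrps26 (0.00018), −0.72 for Mrpl34 (0.00054), −0.69 for Mrps24 (0.00014) and −0.69 for Mrps34 (0.00071). The difference between the systems was not tested.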

How the results depend on the processing

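Counts here are genes of the 76 called in either direction. Rescaled to the same median, the count was 9 in R26 tet-Myc/YAP against WT, 7 against tet-Myc, 5 against tet-YAP and 1 for the R26 interaction; in the LAP system it was 9 in tet-Myc/YAP against WT, 0 against tet-Myc, 18 against tet-YAP, 0 in tumours against tet-YAP and 26 against tet-Myc/YAP. With quantile normalization it was 3, 4, 3 and 3 in the same R26 order, 12 in LAP tet-YAP against WT, 0 and 17 in tet-Myc/YAP against tet-Myc and tet-YAP, 25, 1 and 19 in tumours against WT, tet-YAP and tet-Myc/YAP, and 16 for the LAP interaction. With the density ceiling undone and rescaled, a choice made after seeing the data, it was 12, 13, 5 and 3 in the R26 order, 10, 0 and 24 in LAP tet-Myc/YAP against WT, tet-Myc and tet-YAP, and 1 and 34 in tumours against tet-YAP and tet-Myc/YAP. Tumours against tet-YAP gave 0 with a pseudocount of 1 and 1 with a covariate for the sex pattern. Averaging close pairs gave 29 in LAP tet-YAP against WT, 23 in tet-Myc/YAP against tet-YAP and 7 for the interaction. The cause of these changes was not tested.

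The R26 columns carry a number after the group name, which may do no more than tell the columns of a group apart. With this replicate number as a block the count was 23 in R26 tet-Myc/YAP against tet-YAP and 20 for the R26 interaction. The other R26 counts stayed within 1.5 times. Numbers 5 and 6 occur in the tet-YAP group only, so tet-YAP 5 and 6 did not enter the comparisons of this fit. Their sums, 598 and 576 RPKM, were the lowest of that group, and without tet-YAP 6 alone the count against tet-YAP was 16. The replicate numbers did not pair the libraries: the deviations of 21 same-numbered pairs correlated with a median of 0.015 (−0.25 to 0.40), against −0.014 (−0.38 to 0.23) over 85 other pairs. In the LAP system no paired analysis was possible because the columns carry no numbers.

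Leaving out each library gave, in the R26 system, 0 to 1 in tet-YAP against WT, 42 to 52 in tet-Myc/YAP against WT, 42 to 56 against tet-Myc, 7 to 16 against tet-YAP and 9 to 17 for the interaction. In the LAP system it gave 11 to 53 in tet-YAP against WT, 2 to 5 in tet-Myc/YAP against WT, 0 to 5 against tet-Myc, 12 to 57 against tet-YAP, 51 to 64, 0 to 4 and 46 to 72 in tumours against WT, tet-YAP and tet-Myc/YAP, and 1 to 45 for the interaction. Tet-Myc against WT gave 0 in every such fit of both systems. Among 55 named genes in their comparisons 50 were called, and none of these 50 reversed under any alternative. Reversal was not counted for the others. With another setting 50 values lost their call and 462 stayed on their side of it. Of these losses 20 came with quantile normalization, 11 with rescaling to the same median and 9 with the density ceiling undone. With a library left out 37 lost their call and 1031 stayed. Those fits include libraries of groups outside the comparison. Reads per library limit the genes near 1 RPKM most.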

Other observations

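Other genes of mitochondrial gene expression in LAP tet-Myc/YAP against WT livers, where 3 of the 76 genes rose and 22.5% of all genes were higher and 14% lower, gave 5 of 25 assembly genes higher and none lower, among them Fastkd2 (0.83, log2), Gtpbp10 (0.70), a GTPase of large-subunit assembly, and Mettl15 (0.64), a methyltransferase of the small ribosomal RNA. Of 20 mitochondrial aminoacyl-tRNA synthetases 4 were higher and 2 lower, Mars2 (0.90), Rars2 (0.68) and Wars2 (0.62) among the higher. Of 15 translation factors 1 was higher (Guf1, 0.79) and 3 lower, among them Taco1 (−0.61) and Gfm1 (−0.51), an elongation factor. The share of each list called higher was below that of all genes.

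In tumours against LAP WT livers, where 31.3% of all genes were lower and 21.5% higher, 11 of 25 assembly genes, 9 of 15 translation factors, 10 of 20 synthetases, 8 of 10 genes for mitochondrial DNA and its transcription and 4 of 6 mitoribosomal proteins with other symbols were lower, and none was higher. The lowest named were Gatb (−1.69), a subunit of the glutaminyl-tRNA amidotransferase, Gfm1 (−1.52) and Taco1 (−1.47).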
